A study of Homo sapiens and Homo sapiens
Mus with 12 samples.

Results

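Heat shock and J-domain chaperone genes were followed in UM-UC-3 bladder cancer cells in culture and in xenograft tumors. Members were the protein-coding genes whose symbol begins with HSPA, HSPB, HSPD, HSPE, HSPH or HSP90, or with DNAJA, DNAJB or DNAJC and a number, leaving out HSPG2 and HSPBP1. The rule found 74 genes among the 21466 genes of the culture table and 65 entries among the 26813 human genes of the tumor table, where HSPA14 was listed under 2 gene identifiers. In culture, 42 members were grouped as cytosolic, 15 as proteins of the endoplasmic reticulum (ER), 10 as mitochondrial and 7 as other, and the tumor table held 35, 15, 9 and 6 of these. A low-count filter left 50 members for testing in culture and 49 in the tumors. UM-UC-3 cells transduced with a GIPZ lentiviral non-silencing hairpin (shCtrl) were compared with cells carrying 1 of 2 lentiviral hairpins against the cadherin gene CDH11 (sh#1 and sh#2), and both hairpins together are called CDH11 KD. Cultured cells (n = 3 libraries per group) were plated 24 h before RNA extraction. Tumors (n = 5 per group) were taken 4 weeks after the same cells were injected under the skin of nude mice aged 5 weeks (male BALB/cAJcl-nu/nu), which lack a thymus but keep other host cells, so tumor RNA also held mouse transcripts. All groups shared the parental cell line, the vector backbone and, for the tumors, the host strain, and each hairpin was represented by 1 transduced line.

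HSP70 proteins bind unfolded stretches of client proteins, J-domain proteins bring clients to HSP70 and stimulate its ATPase, and HSP90 proteins act on clients at a later folding step. In the cytosol, heat shock factor HSF1 raises transcription of stress-inducible members such as HSPA1A and DNAJB1 through heat shock elements when unfolded proteins accumulate. The ER and mitochondria hold their own HSP70, HSP90 or chaperonin proteins, and the ER set is under the unfolded protein response through ER stress response elements.

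Totals on genes ranged from 2273182 to 2777019 counts in the cultured libraries and from 414849 to 1248977 human counts in the tumors. CDH11 had 2 to 4 counts in shCtrl libraries, 0 or 1 in sh#1 and 0 to 2 in sh#2 in culture, too few for a test. In tumors the CDH11 counts had medians of 15 in shCtrl, 3 in sh#1 and 7 in sh#2, and the ranges overlapped. The mesenchymal marker VIM was at 2140 CPM (counts scaled to a common library total) or more in every library, KRT8 was between 104.7 and 142.8 CPM in culture, and the urothelial markers UPK1B and UPK3A and the epithelial cadherin CDH1 were at 0 in culture. In sh#2 cells VIM was at 3931 to 4331 normalized CPM against 2140 to 2309 in shCtrl (8227 to 8893 counts against 5436 to 6060 before scaling). UPK1A had 16 to 20 counts in sh#2 against 0 to 5 in shCtrl. The part of VIM and UPK1A in the sh#2 results, and of KRT18 in the sh#1 results, was not tested. Mouse genes took 10.4% to 14.4% of the counts of shCtrl tumors, 10.4% to 30% of sh#1 tumors and 13% to 18.8% of sh#2 tumors. The tumor with the highest mouse share, sh#1 tumor 1, also had the lowest human total, and several values are given with and without it. The 15 tumors were sequenced in 3 library mixes, each holding 1 group, so library mix and group cannot be told apart. Neither labels nor methods say whether the 3 libraries of a cultured group came from separate cultures, so p-values there measure the spread between these libraries, which may be technical. Tissue was measured in bulk, and fewer cells of a type cannot be told apart from less RNA per cell.

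The promoters below are those of the inducible HSP70 pair and DNAJB1, the HSP90 genes of cytosol and ER, the constitutive HSPA8, the ER HSP70 HSPA5 and the mitochondrial HSPD1. They are the 250 bases before the transcription start in RefSeq (GRCh38.p14), written 5′ to 3′ on the strand of the gene, with the letters of a searched motif in capitals. Each printed promoter holds a searched motif, so this choice does not stand for all members with results below. DNAJC10, DNAJC1 and HSPA9 were not among the members in which a motif was found, and their promoters are not printed. Motifs searched on both strands were a heat shock element of 3 units (GAANNTTCNNGAA), its first 2 units alone (GAANNTTC, contained in the longer form) and an ER stress response element (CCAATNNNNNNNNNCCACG). HSPA1A lies at chr6:31815293-31815542, HSPA1B at chr6:31827488-31827737, HSP90AB1 at chr6:44247693-44247942 and HSP90B1 at chr12:103930160-103930409 on the plus strand. DNAJB1 lies at chr19:14518398-14518647, HSP90AA1 at chr14:102087045-102087294, HSPA8 at chr11:123062137-123062386, HSPD1 at chr2:197499841-197500090 and HSPA5 at chr9:125241344-125241593 on the minus strand.
HSPA1A: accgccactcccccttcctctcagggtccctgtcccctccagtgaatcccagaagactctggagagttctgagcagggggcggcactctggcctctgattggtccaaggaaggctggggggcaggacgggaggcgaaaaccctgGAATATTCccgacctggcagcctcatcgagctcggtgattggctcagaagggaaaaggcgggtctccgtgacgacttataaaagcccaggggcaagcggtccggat
HSPA1B: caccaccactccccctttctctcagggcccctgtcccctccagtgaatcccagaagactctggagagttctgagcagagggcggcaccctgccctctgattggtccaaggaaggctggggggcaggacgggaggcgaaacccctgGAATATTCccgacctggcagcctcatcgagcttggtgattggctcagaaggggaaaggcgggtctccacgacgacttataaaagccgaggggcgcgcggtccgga
DNAJB1: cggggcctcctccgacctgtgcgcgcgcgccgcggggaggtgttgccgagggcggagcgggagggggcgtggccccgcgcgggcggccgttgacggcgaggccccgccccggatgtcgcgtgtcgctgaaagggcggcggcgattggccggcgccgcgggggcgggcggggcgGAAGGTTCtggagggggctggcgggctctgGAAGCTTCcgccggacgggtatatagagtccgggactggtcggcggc
HSP90AA1: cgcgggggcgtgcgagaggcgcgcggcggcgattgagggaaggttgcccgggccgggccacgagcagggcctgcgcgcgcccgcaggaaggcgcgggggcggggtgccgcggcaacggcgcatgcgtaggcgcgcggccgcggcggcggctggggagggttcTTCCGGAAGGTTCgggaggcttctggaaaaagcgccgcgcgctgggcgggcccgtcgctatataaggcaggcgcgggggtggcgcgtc
HSP90AB1: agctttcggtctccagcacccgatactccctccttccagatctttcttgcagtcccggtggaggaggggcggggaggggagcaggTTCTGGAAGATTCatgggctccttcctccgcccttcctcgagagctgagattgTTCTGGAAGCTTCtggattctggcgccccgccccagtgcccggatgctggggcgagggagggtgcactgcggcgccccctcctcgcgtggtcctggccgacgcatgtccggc
HSPA8: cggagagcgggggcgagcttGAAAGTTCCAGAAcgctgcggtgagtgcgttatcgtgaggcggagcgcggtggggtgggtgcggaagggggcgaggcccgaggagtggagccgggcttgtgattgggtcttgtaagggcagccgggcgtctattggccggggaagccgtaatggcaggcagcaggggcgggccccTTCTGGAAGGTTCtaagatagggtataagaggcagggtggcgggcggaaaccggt
HSPD1: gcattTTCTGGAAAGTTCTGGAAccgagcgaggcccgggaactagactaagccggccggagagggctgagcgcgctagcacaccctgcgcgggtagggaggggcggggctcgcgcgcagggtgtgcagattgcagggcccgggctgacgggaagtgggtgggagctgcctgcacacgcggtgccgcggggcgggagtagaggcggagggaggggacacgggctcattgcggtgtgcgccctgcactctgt
HSPA5: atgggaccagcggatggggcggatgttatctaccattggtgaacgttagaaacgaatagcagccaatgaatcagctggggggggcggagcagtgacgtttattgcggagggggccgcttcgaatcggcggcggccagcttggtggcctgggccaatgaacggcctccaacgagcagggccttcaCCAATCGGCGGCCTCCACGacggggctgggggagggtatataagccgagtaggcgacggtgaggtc
HSP90B1: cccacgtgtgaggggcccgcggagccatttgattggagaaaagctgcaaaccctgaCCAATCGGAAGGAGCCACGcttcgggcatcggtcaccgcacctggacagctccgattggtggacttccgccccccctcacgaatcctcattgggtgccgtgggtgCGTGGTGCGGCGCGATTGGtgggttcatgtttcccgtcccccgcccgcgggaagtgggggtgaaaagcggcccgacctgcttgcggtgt

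RefSeq promoters of 250 bases before to 50 after the start were matched for 66 member genes. A member gene was counted if any of its promoters held the motif, while the background was counted by promoter. Member and background shares therefore differ in unit. The element of 3 units occurred in 7 of these (10.6%: DNAJA1, DNAJB6, HSP90AA1, HSP90AB1, HSPA6, HSPA8 and HSPD1), against 90 of 22199 coding promoters (0.405%). Its first 2 units alone occurred in 17 member genes (25.8%), among them HSPA1A, HSPA1B and DNAJB1, against 1259 coding promoters (5.67%). By compartment, the longer element stood before 6 of 37 matched cytosolic genes, 1 of 10 mitochondrial genes and 0 of 13 ER genes. The ER stress response element occurred before HSPA5 and HSP90B1 (2 of 66 member genes, 3.03%), against 23 coding promoters (0.104%). These are matches of letters in reference sequence, and binding of a factor was not measured.

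In cultured cells the HSP70 pair HSPA1A and HSPA1B rose furthest among the members with either hairpin, and 21 of 50 tested members differed between the hairpins. With sh#1, 14 of 50 tested members were higher and 4 lower than shCtrl (36%), where 22.4% of all 9859 tested genes passed the threshold (edgeR quasi-likelihood test, Benjamini-Hochberg adjusted p, called q, under 0.05). With sh#2, 15 were higher and 7 lower (44%), against 38.3% of all genes. Between sh#1 and sh#2, 10 members were higher and 11 lower in sh#1 (42%), against 24.7% of all genes. By compartment, sh#1 gave 9 higher and 2 lower of 23 cytosolic members, 3 and 2 of 13 ER members and 2 and 0 of 8 mitochondrial members. For sh#2 these were 8 and 4, 6 and 1, and 1 and 1. Between the hairpins, 4 cytosolic members were higher and 6 lower in sh#1, 1 and 4 in the ER and 4 and 0 in mitochondria. With both hairpins as 1 group, 5 of 50 members were higher and 1 lower (12%), against 17.4% of all genes. Both hairpins were compared with the same 3 shCtrl libraries. Of the 6 members called for CDH11 KD, HSP90AA1 and DNAJC1 were called under all 18 alternatives, while 3 were called without shCtrl library 2 and 2 without shCtrl library 3.

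The split between higher and lower calls depended on scaling. TMM scaling factors were 1.07 to 1.09 in shCtrl, 1.02 to 1.04 in sh#1 and 0.897 to 0.905 in sh#2 libraries. With total counts in place of TMM, the median of all genes moved to -0.08 (log2) for sh#1, -0.27 for sh#2, 0.20 for sh#1 against sh#2 and -0.16 for CDH11 KD, and the calls among members became 13 higher and 5 lower, 7 and 19, 15 and 7, and 2 and 3. Median log2 fold changes of the tested members under TMM were 0.03 for sh#1, 0.10 for sh#2 and 0.14 for CDH11 KD, where the median of all genes was near 0.

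HSPA1A and HSPA1B encode nearly identical stress-inducible HSP70 proteins and lie next to each other on chromosome 6 (31815543 to 31817946 and 31827738 to 31830254, plus strand, GENCODE on GRCh38). How the counting split reads between them is uncertain. HSPA1A was at 21.6, 30.8 and 21.3 normalized CPM (CPM after TMM scaling) in shCtrl, 45.1, 49.5 and 42.3 in sh#1 and 191, 191 and 214 in sh#2. The groups did not overlap, and the order was shCtrl, sh#1, sh#2. HSPA1A rose by 0.89 on the log2 scale with sh#1 (SE 0.14, q = 2.27e-06) and by 3.02 with sh#2 (SE 0.12, q = 2.37e-29). HSPA1B was at 7.08, 9.02 and 9.53 in shCtrl, 18.4, 23.5 and 28.5 in sh#1 and 128, 98.4 and 118 in sh#2, again without overlap. HSPA1B rose by 1.47 with sh#1 (q = 3.05e-07) and by 3.74 with sh#2 (q = 1.27e-26). The hairpins differed from each other, with HSPA1A 2.13 lower on the log2 scale (log2 difference -2.13, q = 1.1e-23) and HSPA1B 2.28 lower in sh#1 than in sh#2 (-2.28, q = 4.54e-20). With the counts of both genes summed, the rise was 1.06 for sh#1 and 3.24 for sh#2. As 1 group, CDH11 KD gave a log2 fold change of 2.30 for HSPA1A (q = 0.0915) and 2.98 for HSPA1B (q = 0.0704) by edgeR, which did not pass. DESeq2 called both (q = 0.00611 and 0.000662), and the mean of the hairpins in a fit with 3 groups gave 1.96 for HSPA1A (q = 9.88e-21) and 2.6 for HSPA1B (q = 8.2e-19).

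**Figure D1:**
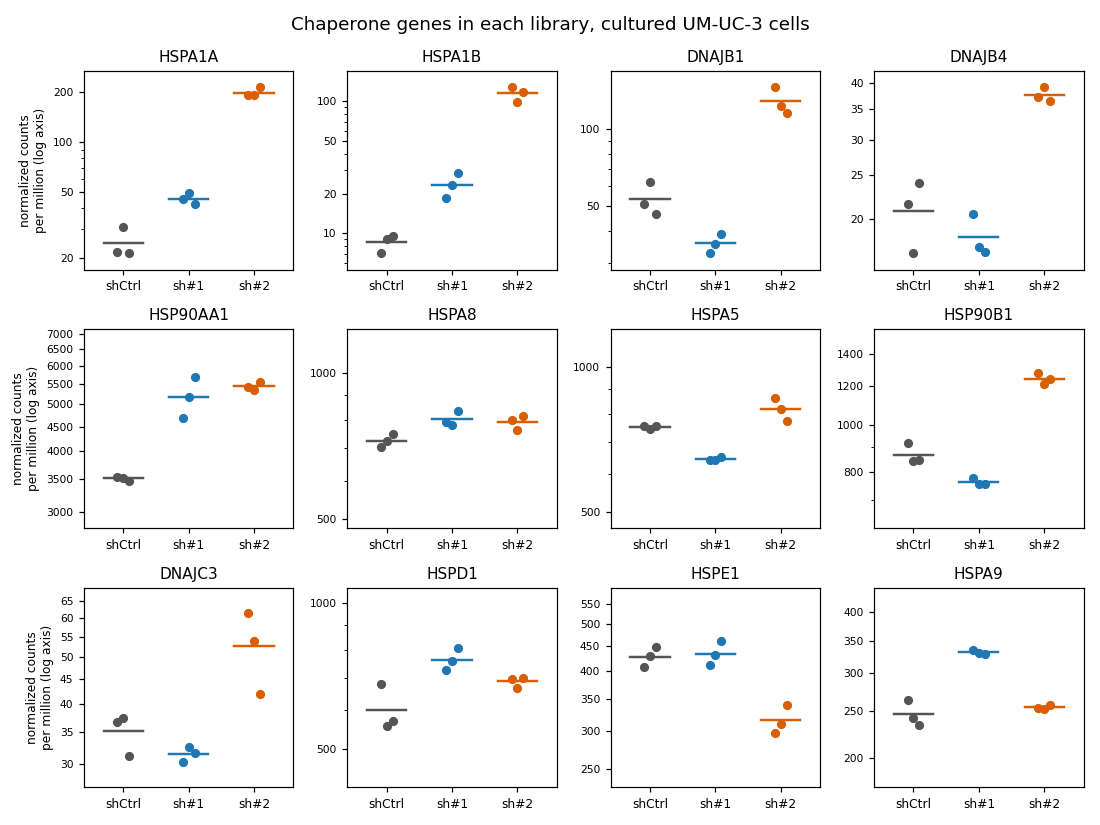
Normalized CPM (log axis) of 12 chaperone genes in the 9 cultured libraries, with points for libraries and lines for group means. HSPA1A sits at 191 to 214 in sh#2 against 21.3 to 30.8 in shCtrl, and DNAJB1 lies below shCtrl in sh#1 and above it in sh#2.

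DNAJB1 is the stress-inducible J-domain partner of cytosolic HSP70. DNAJB1 was at 51.2, 61.9 and 46.5 normalized CPM in shCtrl, 32.8, 35.6 and 39.1 in sh#1 and 145, 123 and 115 in sh#2. All sh#1 libraries lay below, and all sh#2 libraries above, the shCtrl libraries. DNAJB1 fell by 0.56 with sh#1 (log2 fold change -0.56, SE 0.13, q = 0.00111) and rose by 1.27 with sh#2 (SE 0.11, q = 3.38e-14), and the hairpins differed (-1.83 for sh#1 against sh#2, q = 1.34e-18). DNAJB4, a J-domain protein of the same type, was at 21.6, 16.8 and 24.0 in shCtrl, 20.5, 17.4 and 16.9 in sh#1 and 37.3, 39.2 and 36.5 in sh#2. Only the sh#2 libraries stood apart, and DNAJB4 rose with sh#2 (0.85, q = 2.86e-05) with a value of -0.20 (q = 0.485) for sh#1. The stress-inducible HSPA6 was close to absent and was not tested. Its counts were 0 in every shCtrl library, at most 1 with sh#1 and 1 to 3 with sh#2. HSPA1L, a testis-enriched gene beside HSPA1A, had 7 to 11 counts per library in shCtrl, 1 to 4 with sh#1 and 2 in each sh#2 library. It did not pass the filter. Without the filter HSPA1L was lower with sh#1 (log2 fold change -1.69, q = 0.0471) and with sh#2 (-1.83, q = 0.0265).

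HSP90AA1, the inducible cytosolic HSP90, rose with each hairpin by a like amount. HSP90AA1 was at 3544, 3520.0 and 3481 normalized CPM in shCtrl, 4685, 5179 and 5693 in sh#1 and 5425, 5365 and 5564 in sh#2. Every KD library lay above every shCtrl library. HSP90AA1 rose by 0.56 with sh#1 (q = 9.71e-12) and 0.63 with sh#2 (q = 7.16e-14), and the difference between hairpins was -0.07 (95% interval -0.18 to 0.04). HSP90AB1, the constitutive form, was at 2035, 1844 and 1918 in shCtrl, 2192, 2279 and 2051 in sh#1 and 2559, 2385 and 2382 in sh#2. HSP90AB1 rose by 0.17 with sh#1 (q = 0.0221) and 0.34 with sh#2 (q = 2.18e-06), but neither rise was called with total counts in place of TMM (0.10 and 0.08), and the sh#1 rise was not called without shCtrl library 2, shCtrl library 3 or sh#1 library 2. HSPA8, the constitutive HSP70, did not pass in any comparison of the fits as designed, with 704, 724 and 749 in shCtrl, 793, 782 and 838 in sh#1 and 800.2, 763 and 818 in sh#2. The log2 fold changes of HSPA8 were 0.15 (95% interval 0.03 to 0.26, q = 0.0566) and 0.13 (0.01 to 0.25, q = 0.0754). HSPA8 passed for sh#1 without the filter (0.16, q = 0.0478) and with a replicate block (0.15, q = 0.0404), for CDH11 KD as the mean of the hairpins in a fit with 3 groups (0.14, q = 0.0283), and between the hairpins with total counts (0.21, q = 0.0031). HSP90AA1, HSP90AB1 and HSPA8 have processed pseudogenes, and reads shared with these copies could not be assigned with certainty.

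HSP110 proteins release nucleotide from HSP70. HSPA4 was at 192, 179.6 and 173 normalized CPM in shCtrl, 224, 232 and 268 in sh#1 and 163, 166 and 179 in sh#2. HSPA4 rose with sh#1 (0.41, q = 2.33e-05), was at -0.10 with sh#2 (q = 0.354) and differed between hairpins (0.51, q = 6.52e-07). HSPH1 was at 91.7, 82.0 and 86.9 in shCtrl, 105, 100.4 and 121 in sh#1 and 87.7, 76.5 and 90.6 in sh#2. HSPH1 rose with sh#1 (0.33, q = 0.00869), was at -0.03 with sh#2 and also differed between hairpins (0.36, q = 0.00461). In both genes the sh#1 libraries lay above every shCtrl and sh#2 library. With total counts both were called lower with sh#2 (HSPA4 -0.36, q = 0.000202, and HSPH1 -0.29, q = 0.0175). The HSPH1 rise with sh#1 was not called by DESeq2, nor without shCtrl library 2 or sh#1 library 3. The small heat shock protein HSPB1, which holds unfolded proteins without ATP, did not pass with either hairpin (-0.03 for sh#1, 0.12 for sh#2, q = 0.103). With sh#2 it turned to -0.14 and passed with total counts (q = 0.0465), and it passed as higher without shCtrl library 2 (0.17, q = 0.0415). HSPB8 had at most 2 counts in any library.

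Of the other cytosolic J-domain genes, DNAJB5 was lower with both hairpins. DNAJB5 was at 18.1, 17.2 and 17.9 normalized CPM in shCtrl, 13.5, 7.82 and 10.9 in sh#1 and 10.7, 10 and 13.2 in sh#2, without overlap (CDH11 KD -0.68, q = 0.02). The DNAJB5 call was lost without any 1 of the 3 shCtrl libraries, and DESeq2 called it for CDH11 KD but for neither hairpin alone. With sh#1, DNAJA2 (0.41, q = 0.0132), the ribosome-associated DNAJC2 (0.41, q = 0.0014) and DNAJC7 (0.30, q = 0.00677), which also binds HSP90, rose. With sh#2, DNAJB6 (0.28, q = 0.0168), which restrains aggregation, and DNAJB2 (0.61, q = 0.0397) rose. DNAJA1 (-0.36, q = 0.00381), the vesicle protein DNAJC5 (-0.32, q = 0.0121) and HSPA14 (-0.64, q = 0.026), an HSP70 found with ribosomes, fell with sh#2. The histone chaperone DNAJC9, grouped as other, was lower with sh#2 as well (-0.45, q = 0.000549). DESeq2 did not call DNAJA2, DNAJB6, DNAJB2, DNAJC5 or HSPA14, and total counts in place of TMM also lost DNAJB6 and DNAJB2. The call of DNAJA1 was lost without sh#2 library 2 and that of DNAJA2 without shCtrl library 3. DNAJC5 and HSPA14 were each called in 11 of 15 alternatives, DNAJB6 in 10 and DNAJB2 in 7, while DNAJC2, DNAJC7 and DNAJC9 were called in all 15. HSPB11, a protein of cilia transport with a heat shock symbol, was lower in sh#1 than in sh#2 (-0.34), a call that was lost with DESeq2 and with total counts (-0.15), and without sh#1 library 1, sh#1 library 2 or sh#2 library 3.

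**Figure D2:**
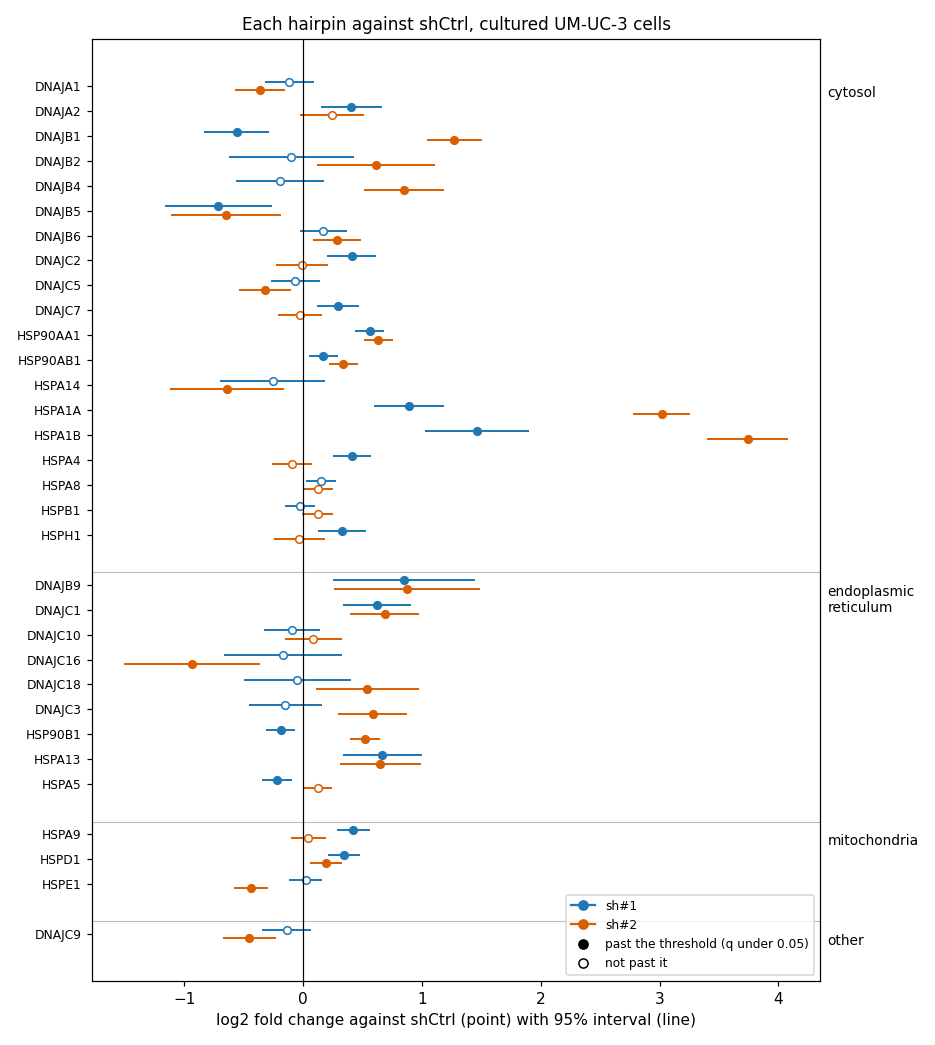
Log2 fold changes of the named and tested members against shCtrl in culture, by compartment, with 95% intervals as lines and filled points for q under 0.05. HSPA1A and HSPA1B lie furthest to the right with sh#2 (3.02 and 3.74), and HSPA5, HSP90B1 and DNAJB1 lie on the left with sh#1.

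Among ER members, the main chaperones were lower with sh#1 and HSP90B1 was higher with sh#2. HSPA5 (BiP), the ER HSP70 and the main sensor partner of the unfolded protein response, was at 755, 745 and 755 normalized CPM in shCtrl, 642, 643 and 652 in sh#1 and 863, 819 and 773 in sh#2. The 3 groups did not overlap. HSPA5 fell by 0.22 with sh#1 (-0.22, q = 0.00367), was at 0.12 with sh#2 (q = 0.0901) and differed between hairpins (-0.34, q = 7.67e-06). With total counts in place of TMM the sh#2 value turned to -0.14 (q = 0.0431), while the sh#1 value stayed negative (-0.29). HSP90B1 (GRP94), the ER HSP90, was at 916, 840.5 and 845 in shCtrl, 778, 753 and 752 in sh#1 and 1278, 1213 and 1242 in sh#2. HSP90B1 fell by 0.19 with sh#1 (-0.19, q = 0.0123) and rose by 0.52 with sh#2 (q = 4.93e-11), with a difference of -0.71 between hairpins (q = 6.34e-15). The fall with sh#1 was not called without shCtrl library 1 or sh#1 library 2. DNAJC3, an ER J-domain protein that also inhibits the kinase PERK, was at 36.6, 37.3 and 31.2 in shCtrl, 30.3, 32.6 and 31.7 in sh#1 and 61.6, 54.0 and 41.9 in sh#2. DNAJC3 rose with sh#2 (0.59, q = 0.000641) and was at -0.15 with sh#1 (q = 0.522). With total counts in place of TMM the rise of DNAJC3 with sh#2 was not called.

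A further 3 ER members were higher with both hairpins. DNAJC1, a J-domain protein of the ER membrane, was at 35.0, 25.8 and 34.3 normalized CPM in shCtrl, 43.9, 50.9 and 52.1 in sh#1 and 56.5, 48.7 and 48.2 in sh#2 (CDH11 KD 0.65, SE 0.13, q = 0.00301). HSPA13, a short HSP70 of the microsomes, was at 30.3, 18.0 and 21.7 in shCtrl, 37.7, 36.5 and 37.3 in sh#1 and 41.1, 32.0 and 37.0 in sh#2 (0.66, q = 0.00882). DNAJB9 (ERdj4), a partner of HSPA5 in ER-associated degradation, was at 3.94, 7.79 and 5.72 in shCtrl, 13.1, 10.4 and 8.10 in sh#1 and 8.40, 11 and 12.7 in sh#2 (0.86, q = 0.035). In all 3 genes every KD library lay above every shCtrl library. HSPA13 and DNAJB9 were not called for CDH11 KD with total counts in place of TMM, and DNAJB9 was not called by DESeq2 or with a replicate block. For CDH11 KD, DNAJB9 was called in 10 of 18 alternatives and HSPA13 in 15. The HSPA13 call was also lost without shCtrl library 2 or shCtrl library 3. With sh#2 DNAJC16 fell (-0.93, q = 0.00659) and DNAJC18 rose (0.54, q = 0.0369), both membrane proteins of the ER, and neither was called by DESeq2. DNAJC16 was called in 11 of 15 alternatives and DNAJC18 in 8. The DNAJC18 call was also lost with upper quartile scaling and with total counts (0.28).

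Of the 8 tested mitochondrial members, 4 differed between the hairpins, all higher in sh#1 (50%, against 24.7% of all genes). HSPD1 (HSP60), the matrix chaperonin, was at 678, 556 and 569.7 normalized CPM in shCtrl, 728, 757 and 805 in sh#1 and 697, 668 and 699 in sh#2. HSPD1 rose with sh#1 (0.34, q = 3.16e-05), and with CDH11 KD (0.27, q = 0.0485, not called in 11 of 18 alternatives). Its rise with sh#2 (0.19, q = 0.0135), where 1 library lay below the highest shCtrl library, turned to -0.07 with total counts in place of TMM. HSPE1 (HSP10), the co-chaperonin that caps HSPD1 rings and lies head to head with HSPD1 (chromosome 2, 197500140 to 197503449, plus strand, GENCODE on GRCh38), was at 406, 429 and 448 in shCtrl, 411, 429.9 and 459 in sh#1 and 297, 310.1 and 339.9 in sh#2. HSPE1 fell with sh#2 (-0.44, q = 3.2e-07) and was at 0.02 with sh#1 (95% interval -0.11 to 0.15). HSPA9 (mortalin), the matrix HSP70, was at 263, 243 and 234 in shCtrl, 335, 329.5 and 328 in sh#1 and 253, 253 and 258 in sh#2. HSPA9 rose with sh#1 (0.42, q = 1.5e-06), where its libraries stood apart from all others, and was at 0.04 with sh#2 (q = 0.645), or at -0.21 (q = 0.00853) with total counts in place of TMM. DNAJA3, the matrix J-domain protein, and DNAJC19, a J-domain protein of the inner membrane, were higher in sh#1 than in sh#2 (0.49, q = 0.0432, and 0.32, q = 0.0416), and DESeq2 called neither. Both calls were kept in 9 of 15 alternatives. HSPD1 and HSPE1 also have processed pseudogenes.

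As a share of all gene counts, cytosolic members took 0.863% ± 0.0109 (SD, n = 3) in shCtrl, 1.04% ± 0.0459 in sh#1 and 0.982% ± 0.0237 in sh#2 cells. Both hairpin groups lay above every shCtrl library, whose highest share was 0.875%. Without HSP90AA1, a choice made after seeing the data, the cytosolic members took 0.480% to 0.492% in shCtrl, 0.506% to 0.514% in sh#1 and 0.474% to 0.514% in sh#2, where shCtrl and sh#2 overlapped. ER members took 0.209% ± 0.00831 in shCtrl, 0.180% ± 0.00383 in sh#1 and 0.219% ± 0.00875 in sh#2, and mitochondrial members 0.149% ± 0.00655, 0.170% ± 0.00533 and 0.123% ± 0.00263. For the ER members sh#1 was lowest without overlap and the other groups overlapped, while the mitochondrial shares were in separate ranges in all 3 groups. Together the members took 1.26%, 1.43% and 1.36% of counts. In tumors the cytosolic share was 0.763% ± 0.0736 (SD, n = 5) in shCtrl, 0.810% ± 0.103 in sh#1 and 0.785% ± 0.112 in sh#2, the ER share 0.177% ± 0.0130, 0.222% ± 0.0821 (0.186% without sh#1 tumor 1) and 0.194% ± 0.0244, and the mitochondrial share 0.197% ± 0.0307, 0.181% ± 0.0146 and 0.183% ± 0.0286. All tumor groups overlapped in each of the 3 compartments.

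**Figure D3:**
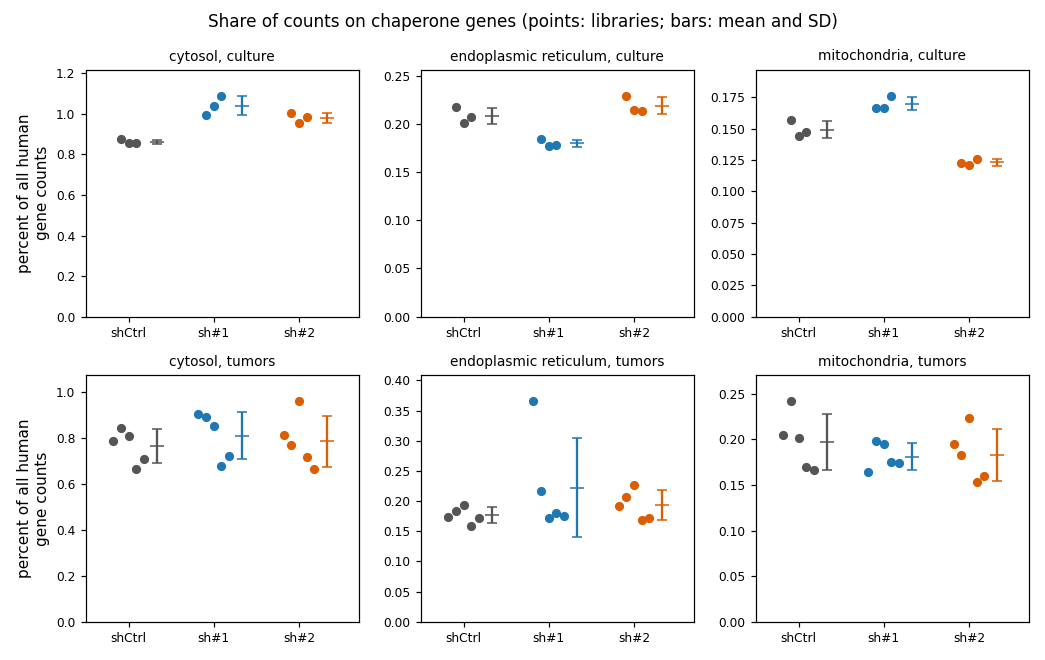
Percent of all human gene counts on cytosolic, ER and mitochondrial members in culture (top) and tumors (bottom), with points for libraries and bars for mean and SD. In culture the mitochondrial share runs from 0.123% in sh#2 to 0.170% in sh#1, and in tumors 1 sh#1 tumor stands at 0.365% for the ER.

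Other folding genes were read from lists of co-chaperones, chaperonin and prefoldin subunits, ER folding genes and mitochondrial quality control genes. HSF1 was at 0.16 with CDH11 KD (q = 0.33), and HSF1 (0.27, q = 0.0201) and HSF2 (0.43, q = 0.033) rose with sh#2, calls that were lost with total counts in place of TMM. Of 23 HSP70 and HSP90 co-chaperones, 3 were higher and 1 lower with CDH11 KD (17.4% of the list, against 17.4% of all genes), 4 and 0 with sh#1 (17.4% against 22.4%) and 5 and 7 with sh#2 (52.2% against 38.3%). With total counts these were 1 and 3, 4 and 0, and 2 and 13. BAG3, which links HSP70 to autophagy, rose with CDH11 KD (0.61, q = 0.000513) and with each hairpin (0.67 and 0.55), as did the HSP90 co-chaperones PTGES3 (p23, 0.36) and SUGT1 (0.39), while BAG2 fell (-0.48, q = 0.042). With total counts BAG3 was the one co-chaperone still higher with CDH11 KD, and SUGT1 was not called with sh#2. Of 14 cytosolic chaperonin and prefoldin subunits, 3 were higher and 0 lower with CDH11 KD (21.4%, against 17.4% of all genes), 9 and 0 with sh#1 (64.3% against 22.4%, and 7 and 0 with total counts) and 4 and 2 with sh#2 (42.9% against 38.3%), where total counts gave 1 and 10. CCT8 (0.45), PFDN5 (0.31) and CCT4 (0.26) were the 3 that rose with CDH11 KD, and with total counts CCT8 was the one still called.

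Of 22 tested ER folding genes outside the family, 11 were lower and 0 higher in sh#1 than in sh#2 (50%, against 24.7% of all genes, and 8 and 0 with total counts), and the other 11 did not pass. Against shCtrl, 1 was higher and 7 lower with sh#1 (36.4% against 22.4%) and 7 higher and 1 lower with sh#2 (36.4% against 38.3%, and 3 and 4 with total counts). The lower genes with sh#1 included the lectin chaperone CALR (-0.48, q = 0.00442), the disulfide isomerase PDIA3 (-0.48, q = 7.21e-05) and MANF (-0.53, q = 5.34e-07), a secreted stress protein. The disulfide isomerase P4HB rose with sh#2 (1.09, q = 9.59e-20). ERO1A, the oxidase that recharges disulfide isomerases, rose with both hairpins (1.06 with sh#1, 2.41 with sh#2, CDH11 KD 1.88, q = 0.0332), HERPUD1 rose with CDH11 KD (0.42, not called with total counts) and SDF2L1 fell (-0.43). Of 12 mitochondrial genes, 4 rose with CDH11 KD and 0 fell (33.3%, against 17.4% of all genes), namely the protease LONP1 (1.04, q = 0.00321), the nucleotide exchange factors GRPEL2 (0.89, q = 0.000228) and GRPEL1 (0.36) and the mitochondrial HSP90 TRAP1 (0.72, q = 0.00721). With total counts 3 rose and 2 fell with CDH11 KD, and GRPEL1 was not called. With sh#1, 4 of these genes were higher and 0 lower (33.3% against 22.4% of all genes, and 4 and 1 with total counts). With sh#2, 3 were higher and 2 lower (41.7% against 38.3%, and 3 and 5 with total counts).

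In the tumors few members passed the threshold, which there was a q under 0.1. For CDH11 KD, 0 of 49 members were called by edgeR and 0 by DESeq2, against 1.51% of all 9184 tested genes. Of the 49, 8 had an unadjusted edgeR p under 0.05 (6 higher, 2 lower), as had 12.7% of all genes. For sh#1, 0 of 49 were called by edgeR, against 1.48% of all genes, and 1 by DESeq2. An unadjusted edgeR p under 0.05 was found for 8 of the 49 (5 higher, 3 lower) and for 11.2% of all genes. For sh#2, 1 member was higher and 0 lower (2.04%), against 2.68% of all genes. In sh#1 against sh#2, 1 member was lower and 0 higher, against 1.19% of all genes. The median of the tested members was 0.10 (log2) for CDH11 KD, 0.06 for sh#1 and 0.08 for sh#2, with the median of all genes near 0. At this depth the 95% intervals of single members had a reach of 0.34 to 0.39 (log2) to either side of the estimate at the median.

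**Figure D4:**
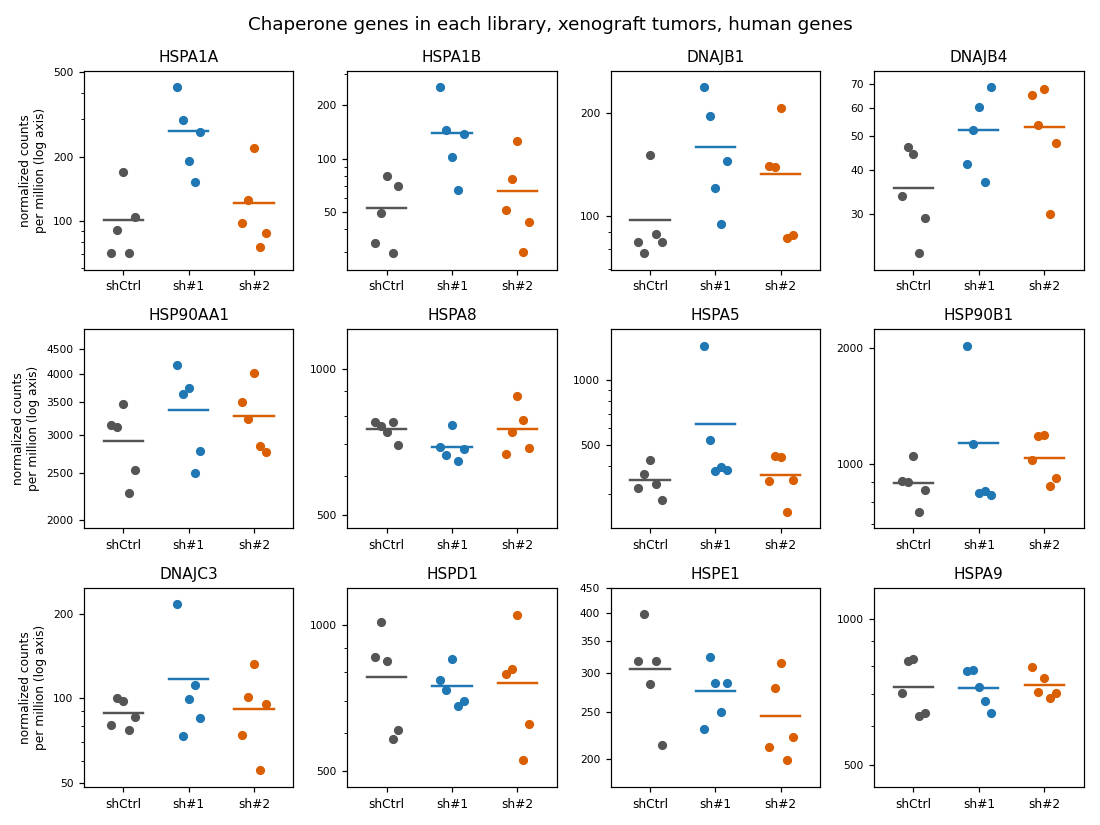
Normalized CPM (log axis) of the same 12 genes in the 15 tumors, with points for tumors and lines for group means. HSPA1A lies at 153 to 424 in sh#1 against 70.6 to 169.9 in shCtrl, and sh#1 tumor 1 is the high point for HSPA5 (1435) and HSP90B1 (2023).

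HSPA1A was at 70.6, 90.9, 169.9, 71.2 and 104 normalized CPM in shCtrl tumors, 424, 299.5, 191, 153 and 263 in sh#1 and 98.1, 125, 220.3, 75.8 and 87.8 in sh#2. In sh#1, 4 of 5 tumors lay above every shCtrl tumor, and the sh#2 tumors overlapped shCtrl. The log2 fold change of HSPA1A was 1.37 for sh#1 (95% interval 0.58 to 2.16, q = 0.125 by edgeR, q = 0.0252 by DESeq2) and 0.31 for sh#2 (q = 0.787), and 1.19 for sh#1 without sh#1 tumor 1 (q = 0.237). The difference between hairpins was 1.06 (q = 0.294), opposite in sign to the culture value of -2.13. HSPA1B gave 1.39 for sh#1 (q = 0.216), or 1.155 without sh#1 tumor 1 (q = 0.369), and 0.41 for sh#2 (q = 0.774). DNAJB1 was at 84.3, 77.9, 152, 88.9 and 84.3 in shCtrl, 239, 197, 121, 94.6 and 146 in sh#1 and 141, 139.7, 208, 86.4 and 87.8 in sh#2 (0.66, q = 0.44, and 0.47, q = 0.556). Without sh#1 tumor 1 the sh#1 value of DNAJB1 was 0.525 (q = 0.61). Tumor 3 of shCtrl was the highest of its group for both HSPA1A and DNAJB1. DNAJB4 had the smallest q of the members for CDH11 KD (0.59, 95% interval 0.20 to 0.97, q = 0.155), with 33.7, 46.5, 44.5, 23.1 and 29.1 in shCtrl, 41.6, 52.0, 60.5, 37.0 and 68.7 in sh#1 and 65.4, 53.7, 68.0, 29.9 and 47.7 in sh#2, where groups overlapped.

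The HSP90 genes and HSPA8 did not pass in tumors. HSP90AA1 had a median of 3111 normalized CPM in shCtrl (range 2274 to 3464), 3637 in sh#1 (2500.0 to 4179) and 3224 in sh#2 (2767 to 4014), with log2 fold changes of 0.21 (95% interval -0.08 to 0.50) and 0.17 (-0.12 to 0.47). These intervals held the culture estimate of neither sh#1 (0.56) nor sh#2 (0.63). The culture estimates carry an error of their own, and culture was not tested against tumors. HSP90AB1 was at -0.08 and -0.10, and HSPA8 at -0.12 and 0.00. HSPH1 gave 0.44 for sh#1 (q = 0.477) and 0.41 for sh#2 (q = 0.456), and HSPA4 -0.18 and -0.21 (q = 0.551 and 0.422). Without sh#1 tumor 1 the sh#1 values were 0.30 for HSPH1 and 0.13 for HSP90AA1.

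Among ER members, the sh#1 values of HSPA5, HSP90B1, DNAJC3 and DNAJB9 rested on sh#1 tumor 1. HSPA5 was at 317, 369, 426, 333 and 280.4 normalized CPM in shCtrl, 1435, 527, 379.7, 397 and 386 in sh#1 and 341, 449, 443, 248 and 346 in sh#2. The sh#1 fold change of HSPA5 was 0.81 (log2, q = 0.414) and 0.29 (q = 0.515) without that tumor. For sh#1 against sh#2 the log2 difference of HSPA5 was 0.73 (q = 0.536), and 0.22 (q = 0.693) without that tumor. With the log2 ratio of mouse to human counts in the model it was 0.62 (q = 0.0175), which passed, and 0.40 (q = 0.401), which did not, once that tumor was left out as well. HSP90B1 was at 2023 in sh#1 tumor 1 and between 836 and 1130.0 in the other sh#1 tumors, against 755 to 1053 in shCtrl, and its sh#1 fold change went from 0.33 to 0.04 without that tumor. DNAJC3 went likewise from 0.32 to 0.08 and DNAJB9 from 0.47 to 0.16. Less movement was seen in DNAJC1 at 0.38 (0.32 without that tumor) and in DNAJC16 at -0.44 (-0.42 without it). Of the 49 tested members, 16 had their highest value of all 15 tumors in sh#1 tumor 1 (8 cytosolic, 7 ER, 1 other), and the next tumor, sh#2 tumor 3, had 9. The share of all tested genes with their highest value in that sh#1 tumor was not counted, so these numbers lack a background. The low human total and the mouse share of 30% in that tumor were given above, and their part in these values was not tested.

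DNAJC10 (ERdj5), an ER J-domain protein with disulfide reductase domains on chromosome 2 (182716255 to 182794464, plus strand), was the member called in tumors. DNAJC10 was at 77.8, 70.3, 70.7, 66.7 and 91.9 normalized CPM in shCtrl, 74.9, 79.1, 103, 72.9 and 75.8 in sh#1 and 104, 105, 129, 132 and 105 in sh#2. All sh#2 tumors lay above every shCtrl and sh#1 tumor. DNAJC10 rose by 0.63 with sh#2 (95% interval 0.35 to 0.91, q = 0.00984) and was lower in sh#1 than in sh#2 (-0.51, q = 0.0915), while the sh#1 value against shCtrl was 0.12 (q = 0.8). The sh#2 rise was called under all 21 alternatives, and the difference between hairpins under 8 of them. In culture DNAJC10 was at 56.2 to 68.9 in shCtrl, 54.2 to 63.1 in sh#1 and 60.7 to 70.9 in sh#2, with a log2 fold change of 0.09 for sh#2 (95% interval -0.15 to 0.32). Of 22 other ER folding genes, PDIA3 was higher in tumors with CDH11 KD (0.59, q = 0.053) and with sh#2 (0.58, q = 0.0911), beside 0.59 with sh#1 (q = 0.111). Between the hairpins, 2 of 10 listed mitochondrial quality control genes were higher in sh#1 tumors (20%, against 1.19% of all genes), or 1 with total counts. Of 13 cytosolic chaperonin and prefoldin subunits, 1 was lower in sh#1 than in sh#2 tumors (7.69%).

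**Figure D5:**
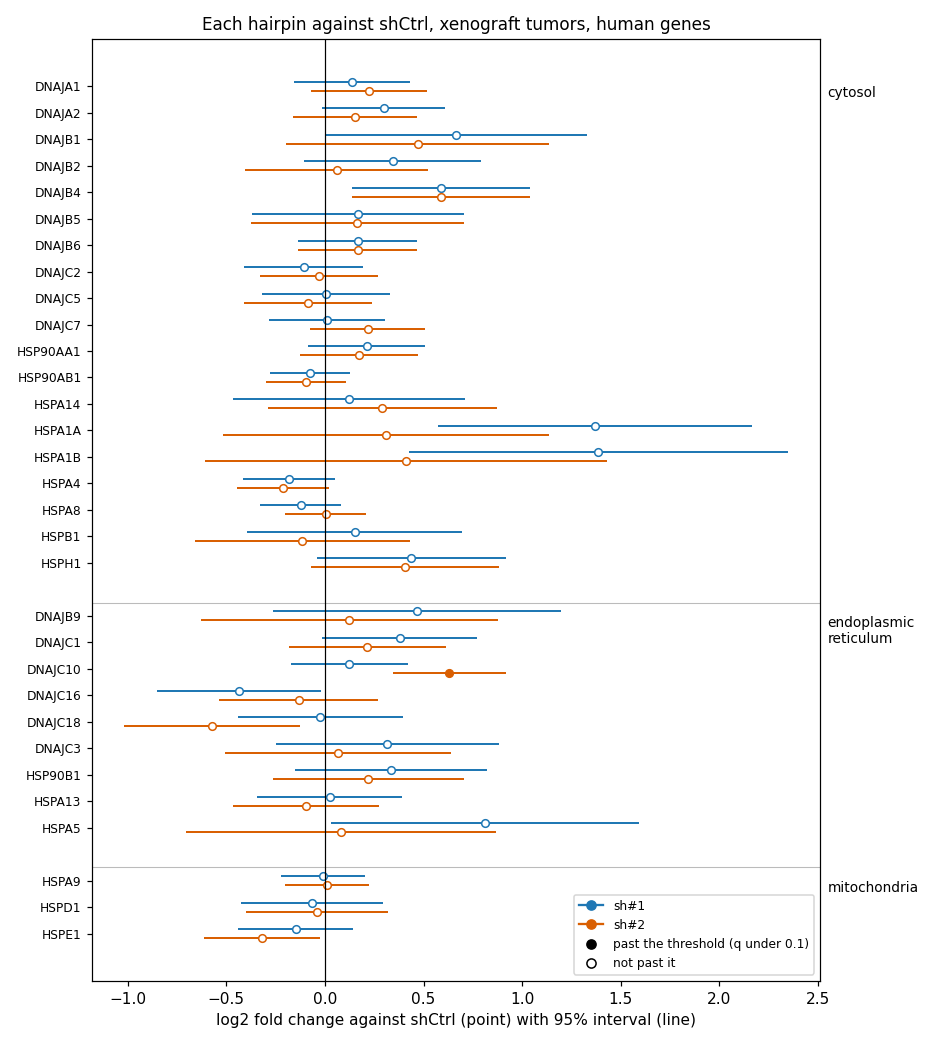
Log2 fold changes of the named members against shCtrl in tumors, by compartment, with 95% intervals and filled points for q under 0.1. DNAJC10 with sh#2 (0.63) is the filled point, and the intervals of HSPA1A and HSPA1B with sh#1 lie right of 0 without passing after adjustment.

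Mitochondrial members did not pass in tumors. HSPD1 ran from 583 to 1019 normalized CPM in shCtrl, 683 to 852 in sh#1 and 528 to 1052 in sh#2, with log2 fold changes of -0.07 and -0.04. HSPA9 was at -0.01 (95% interval -0.22 to 0.20) for sh#1, an interval that did not reach its culture value of 0.42. HSPE1 was at -0.15 for sh#1 and at -0.32 for sh#2 (95% interval -0.61 to -0.03, q = 0.294), beside -0.44 with sh#2 in culture. The 3 ER members higher with both hairpins in culture were at 0.30 (DNAJC1), -0.03 (HSPA13) and 0.31 (DNAJB9) for CDH11 KD in tumors, with q of 0.477, 0.956 and 0.738. Without sh#1 tumor 1 they were at 0.26, -0.06 and 0.14. DNAJB5, lower in culture, was at 0.16 (q = 0.82). Cultured cells and tumors were counted in separate tables, and the difference between them was not tested.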

How the data were processed

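Gene counts of 9 cultured libraries and of 15 xenograft tumors (human and mouse genes) were used as deposited by the authors. For the cultured cells the study's methods name trimming and mapping to hg38, and for the tumors trimming with Trim Galore and mapping with HISAT2 to hg38 (single reads of 75 bp). The counting tool, the handling of molecular identifiers and the separation of human from mouse reads are not given in the sources used here. Human genes were tested in each system with edgeR 4.0.16 (quasi-likelihood test, TMM scaling, low-count filter of the package, robust fit) in R 4.3.3, with Benjamini-Hochberg adjustment over all tested genes and thresholds of 0.05 in culture and 0.1 in tumors. CDH11 KD against shCtrl was fitted with 2 groups, and each hairpin against shCtrl, and the hairpins against each other, with 3 groups. Intervals are 95% intervals of the fit. DESeq2 1.42.0, other scalings and filters, and leaving out each library in turn were alternatives. The tests were checked on simulated counts.

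The members and gene lists were chosen with earlier results of these data known. The text names members past a threshold in CDH11 KD or either hairpin against shCtrl with a mean of at least 20 counts per library (at most 30, by smallest adjusted p), a list of main chaperones, HSF1, and up to 5 called genes per list of other folding genes. DNAJA3, DNAJC19, HSPB11, HSPA6, HSPA1L, HSF2, CALR, PDIA3, MANF and P4HB were named after their values were seen. HSPA1A and HSPA1B as 1 gene, total counts in place of TMM, HSP90AA1 left out of the cytosolic share, and sh#1 tumor 1 left out of the fit with the mouse ratio, were alternatives chosen after seeing the data.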

Additional observations from a re-analysis of the deposited data

Results flagged for a closer look

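Among 102 groups of 5 tumors, 10 held a value set apart from the other 4 by a gap of more than 0.71 of the group's range (Dixon's criterion), where chance gives about 5% of groups. In sh#1 these were HSPA5 (1435 normalized CPM), HSP90B1 (2023), DNAJC3 (216.4) and DNAJB9 (44.4), all in sh#1 tumor 1, with an ER share of 0.365% of counts in the same tumor. DNAJC10 was high in sh#1 tumor 3 (102.9). In shCtrl, DNAJB1 (151.6, tumor 3) and DNAJB2 (38.3, tumor 5) were high and HSPB1 (341.6) was low in 1 tumor. In sh#2, HSPB1 was at 629.2 in the tumor set apart.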

How the results depend on the processing

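Of the members called in culture, 2 of 6 for CDH11 KD, 12 of 18 for sh#1, 9 of 22 for sh#2 and 12 of 21 between the hairpins were called under every alternative run. The count for CDH11 KD became 18 as the mean of both hairpins in a fit with 3 groups, and 2 to 7 when libraries were left out in turn. For sh#2 DESeq2 called 14. With total counts in place of TMM, HSPD1 with sh#2 turned to -0.07 (log2) and HSP90AB1 between the hairpins to 0.02, and the cause was not tested. In tumors, 1 member was called for CDH11 KD without the low-count filter (DNAJB4) and 1 for sh#1 by DESeq2 (HSPA1A). For sh#1 against sh#2 the count was 0 with upper quartile scaling, without the filter, with protein-coding genes only and with total counts, and 2 with each tumor's mouse-to-human count ratio in the model (0 once sh#1 tumor 1 was left out as well). Leaving out tumors gave 0 to 1 for CDH11 KD, 0 to 1 for sh#1, 1 to 3 for sh#2 (3 without shCtrl tumor 5, 2 without sh#2 tumor 4) and 0 to 1 between the hairpins. For CDH11 KD the call appeared without shCtrl tumor 5 or sh#2 tumor 4, and for sh#1 without shCtrl tumor 3 or sh#1 tumor 4.

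With protein-coding genes outside mitochondrial DNA as denominator, shares in shCtrl, sh#1 and sh#2 were 0.952%, 1.11% and 1.04% (cytosol), 0.230%, 0.192% and 0.233% (ER) and 0.165%, 0.182% and 0.131% (mitochondria) in culture. In tumors they were 0.910%, 0.988% and 0.972% (cytosol), 0.235%, 0.220% and 0.227% (mitochondria), and 0.211%, 0.272% and 0.240% (ER, where sh#1 tumor 1 was at 0.469%). Without HSP90AA1, a choice made after seeing the data, cytosolic shares were 0.485%, 0.510% and 0.492% in culture and 0.474%, 0.488% and 0.466% in tumors.

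The labels number the cultured libraries alike in each group. Deviations of same-numbered libraries had correlations of -0.00512 to 0.0551, and 7 of 9 libraries correlated best with a library of their own number. With a replicate block the counts of called members were 4 for CDH11 KD (6 without the block), 19 for sh#1, 22 for sh#2 and 21 between the hairpins. Adding pseudogene counts to members was run in tumors only. Human totals as low as 414849 counts limit what the tumors can show.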

Other observations

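Mouse genes of the tumors were counted apart from the human genes. How the reads were separated is not given, so human reads may be among the mouse counts. The 63 mouse heat shock and J-domain genes took 0.361% to 0.482% of mouse counts in shCtrl tumors, 0.228% to 0.532% in sh#1 and 0.315% to 0.574% in sh#2, and the ranges overlapped. Mouse Hspa1a and Hspa1b together had medians of 6 counts in shCtrl (1 to 14), 11 in sh#1 (3 to 20) and 4 in sh#2 (0 to 20), too few for a comparison.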
